A study of Mus musculus with 18 samples.

Results

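Transcripts of 10 genes of sebaceous lipid production were followed in mouse dorsal skin: the desaturases Scd1, Scd2 and Scd3, the elongase Elovl3, the reductases Far1 and Far2, the esterifying enzymes Awat2, Soat1 and Dgat2l6, and the receptor Mc5r. They were chosen by name, and every probe set that the platform annotation pairs with exactly one of these symbols was taken. Of the 10 genes, 7 have a probe set in that annotation, with 16 probe sets in all, out of 18193 genes and 45037 probe sets tested on the array. Awat2, Soat1 and Dgat2l6 have no probe set under these symbols and were not analysed here. Of the 16 probe sets, 13 in 6 genes vary by at least 0.01 over the arrays. The other 3 (Mc5r 1460723_at, Scd2 1415824_at and Far1 1453550_a_at) hold one value on every array and carry no information, as do 73.5% of all probe sets in the table.

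The samples are total RNA of dorsal skin from male albino hairless HR-1 mice, given as 6 weeks old, on 18 arrays in 3 groups of 6 that the labels number as biological replicates. The labels do not say whether 6 weeks is the age at the start or at sampling. NT skin was not stripped. TS skin was stripped with cellophane tape in 3 sessions a week over 4 weeks, and a session stopped once water loss through the epidermis stood at 70 to 100 g/m2/h. WB mice had the same stripping and, by mouth, winged bean extract at 200 mg/kg/day (vehicle 0.3% carboxymethylcellulose) on 5 occasions a week over 5 weeks, starting 1 week before the first stripping. No vehicle is named for NT and TS mice, and no group received the extract without stripping. The strain, sex, age and skin site are common to all groups, and hairless mice lack a hair coat, which limits them as a model of furred skin. Whole skin was extracted, so fewer cells of a type and less RNA per cell cannot be told apart in any result.

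Sebum is made by sebocytes, which fill with neutral lipid and then break down to release it onto the hair and skin surface. Stearoyl-CoA desaturases place a double bond in saturated fatty acids, Elovl3 lengthens long fatty acids, and fatty acyl-CoA reductases turn them into fatty alcohols. Acyltransferases such as Awat2 join those alcohols to fatty acids as wax esters, while Soat1 esterifies cholesterol. Mc5r, a melanocortin receptor of sebocytes, is known as a regulator of sebum output. In mouse skin Scd1 and Scd3 are known as sebaceous desaturases, and Scd2 is the more widely expressed member of the family.

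The WB arrays stand apart from the others in RNA state. The 3' minus 5' difference of the actin control probe sets, a measure of how complete the labelled transcripts are, was -0.51 ± 0.10 in NT, 0.16 ± 0.07 in TS and 5.69 ± 0.25 in WB (log2, SD, n = 6 each). WB arrays ran from 5.27 to 5.96 and TS arrays from 0.08 to 0.26, so the groups did not overlap (exact permutation test, two-sided, p = 0.00216, the smallest that 6 against 6 arrays allow; adjusted p = 0.00325 over 27 tests). TS also lay above NT, by 0.66 (the same p). Every comparison with WB below therefore joins the extract with this RNA state, and these cannot be told apart. The comparison of TS with NT likewise joins stripping with the smaller actin difference of 0.66, and these cannot be told apart either. Array NT 5 carried a mean of liver marker genes of 14.54, against 6.81 to 7.02 on the other 17 arrays. Values below are deposited log2 values, differences are between group means, and a gene is said to rise or fall where limma gave an adjusted p under 0.05 over all 45037 probe sets and the difference was at least 0.01. The limma p-values set each difference of group means against the spread of these arrays within their groups, estimated over all groups together. The comparisons of TS with NT, WB with TS and WB with NT share arrays and are not independent of each other.

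Tape stripping was followed by lower Scd3 and lower Scd1 at one probe set, by opposite changes at a pair of Far1 probe sets, and by no called change of Elovl3, Scd2 or Far2. Of the 13 varying probe sets, 1 rose and 4 fell in TS against NT, in 3 of the 6 genes. Over all varying probe sets 18.7% rose and 19.4% fell, and 10.1% of all probe sets tested were called. Groups did not overlap in 3 of the 13, and in 24.9% of all varying probe sets. The median difference of the 13 was 0.15 against 0.00 over all varying probe sets. In extract-fed against stripped skin 5 rose and 5 fell, in all 6 genes, against 47.1% and 41.7% of varying probe sets and 23.6% of all tested. Groups did not overlap in 6 of the 13, against 77.6% of all varying probe sets, and the median difference was 0.09, the same as over all varying probe sets. In WB against NT 4 rose and 6 fell, against 45.7% and 43.6% of varying probe sets and 23.7% of all tested, and groups did not overlap in 9 of the 13, against 81.7% (median 0.05 against 0.01). The share of higher calls over the table was 49.2%, 53.1% and 51.2% in the 3 comparisons. After quantile normalization it was 68.8%, 88.1% and 88.3%, and after median centring 49.8%, 88.8% and 88.3%. Among varying probe sets alone it stayed between 49.8% and 56.7% under both.

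**Figure D1:**
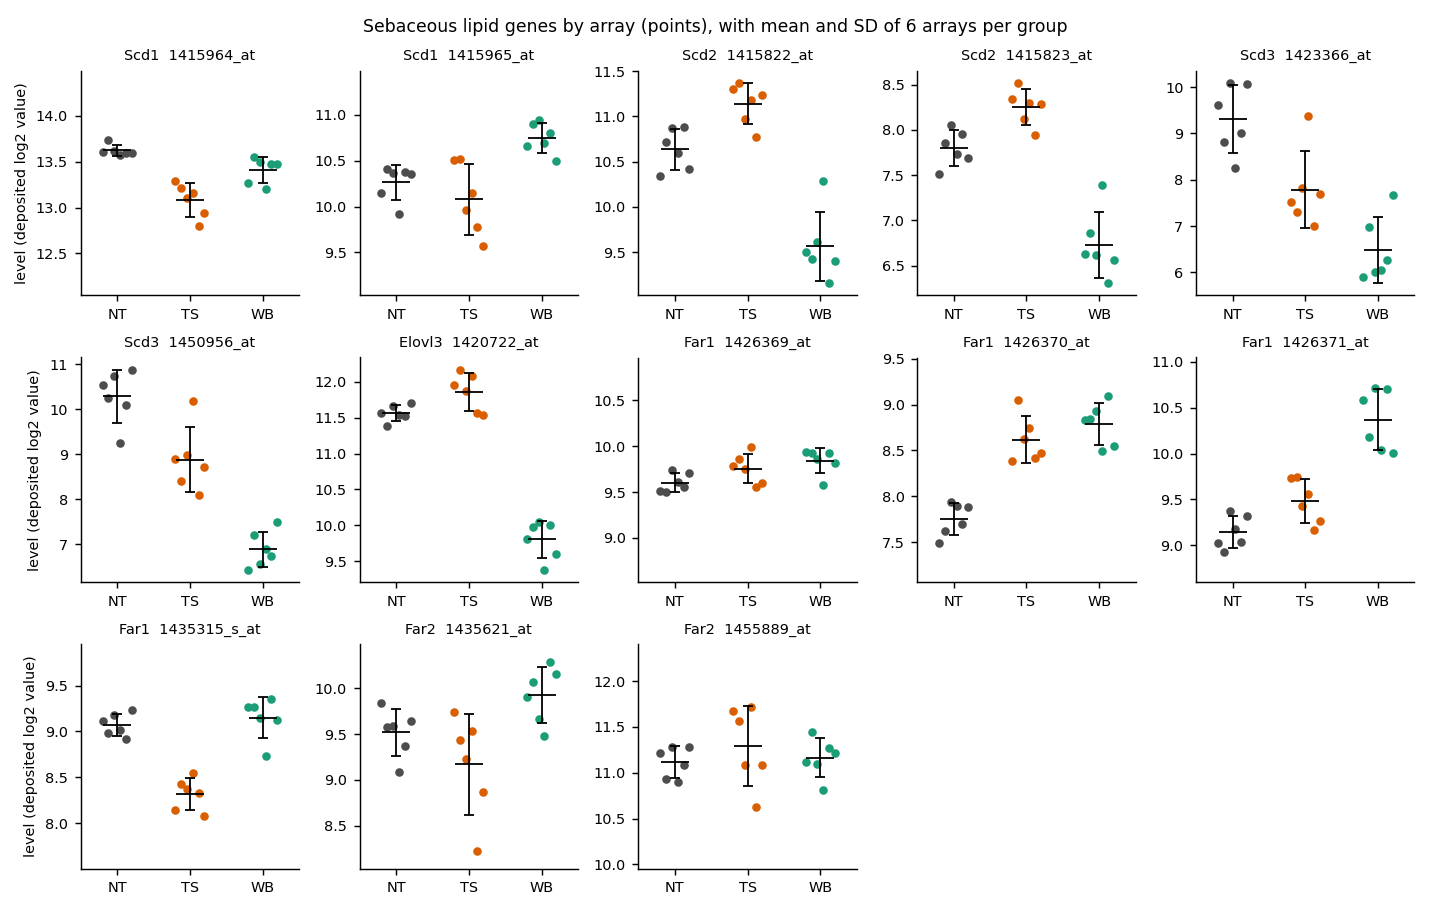
Deposited log2 values (vertical axis, 1 scale per panel) of the 13 varying probe sets on each array (points) by group, with the mean (long line) and SD of 6 arrays. Scd3 steps down from NT to TS to WB, Elovl3 and Scd2 lie lower on the WB arrays, and the Far1 probe sets take different courses.

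Scd3 was the desaturase with the largest differences. Its start site lies on chromosome 19, where RefSeq lists Scd3, Scd2, Scd4 and Scd1 in this order with a few non-coding genes and pseudogenes between them. The 300 bases around the Scd3 start (RefSeq, GRCm38.p6, chr19:44203038-44203337, plus strand, 250 bases before and 50 after the start) are shown because this gene had the largest fall of the 6 in both TS and WB against NT. Motifs were to be marked in capitals, searched on both strands: the CCAAT box (CCAAT), the TATA box (TATAAA) and a sterol regulatory element (TCACNCCAC). None is in this window, which says only that these letters are not there. In all 32851 promoters of the same length, 37.4% hold CCAAT, 13.6% TATAAA and 1.24% TCACNCCAC.
Scd3: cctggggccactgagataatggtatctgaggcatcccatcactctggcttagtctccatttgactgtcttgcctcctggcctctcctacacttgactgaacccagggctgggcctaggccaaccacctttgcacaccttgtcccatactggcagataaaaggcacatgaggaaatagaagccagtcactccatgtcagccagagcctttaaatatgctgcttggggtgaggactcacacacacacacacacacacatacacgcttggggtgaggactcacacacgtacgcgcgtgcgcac

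Scd3 1450956_at ran from 9.25 through a median of 10.39 to 10.88 in NT, from 8.11 through 8.81 to 10.19 in TS, and from 6.44 through 6.82 to 7.49 in WB. TS lay below NT apart from array TS 4, which sat within the NT range, and every WB array lay below every TS and NT array. In TS it fell by 1.41 (SE 0.34, adjusted p = 0.00843), which is 2.66-fold lower if the deposited logarithm has base 2. From TS to WB it fell by 1.99 (SE 0.34, adjusted p = 0.000107) and fell by 3.40 from NT to WB (adjusted p = 2.79e-07). No fold is given for these, since the WB mean of 6.89 lies under the mean array median of 6.93, where the table holds no measure of background.

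Scd3 1423366_at followed the same order. It ran from 8.26 through 9.32 to 10.09 in NT, from 7.01 through 7.61 to 9.38 in TS, and from 5.90 through 6.15 to 7.68 in WB. NT and TS overlapped through TS 4 alone, TS and WB overlapped through WB 6, and NT and WB did not overlap. The difference of TS from NT was -1.52 (SE 0.44, adjusted p = 0.0257), and it no longer passed without NT 1, 3 or 6 or without TS 1, 2 or 5 (adjusted p from 0.0526 to 0.0617), while it grew to -1.84 without TS 4. The differences of WB from TS (-1.31, SE 0.44, adjusted p = 0.0217) and from NT (-2.83, adjusted p = 4.42e-05) passed without any one array.

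Scd1, the main sebaceous desaturase, moved less and not alike at its probe sets. Scd1 1415964_at ran from 13.57 through 13.61 to 13.74 in NT, from 12.80 through 13.13 to 13.29 in TS, and from 13.20 through 13.48 to 13.55 in WB. NT lay above every array of both other groups, and TS was the lowest group, overlapping WB. In TS it fell by 0.54 (SE 0.08, adjusted p = 0.000259, 1.45-fold), and the rise from TS to WB was 0.33 (adjusted p = 0.00248, 1.26-fold). WB minus NT was -0.21 at adjusted p = 0.0432, a call lost without any one of the 6 NT arrays, TS 3, WB 1 or WB 4 (adjusted p from 0.0522 to 0.105) and reversed to 0.16 after quantile normalization (adjusted p = 0.046). After median centring its adjusted p was 0.0504.

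Scd1 1415965_at ran from 9.92 through 10.36 to 10.41 in NT, from 9.57 through 10.05 to 10.52 in TS, and from 10.50 through 10.74 to 10.95 in WB. TS spread across the NT range and beyond it, and WB lay above NT with no overlap. TS differed from NT by -0.18 (SE 0.15, adjusted p = 0.568), which did not pass. The rise from TS to WB was 0.67 (adjusted p = 0.00179, 1.59-fold) and from NT to WB 0.48 (adjusted p = 0.0159, 1.4-fold), so against NT the probe sets of Scd1 were called in opposite directions. The within-array difference of 1415965_at minus 1415964_at ran from -3.64 to -3.22 in NT, from -3.36 to -2.69 in TS and from -2.98 to -2.51 in WB, so that WB lay above NT without overlap and TS lay between. Within-array differences are given with no test, because the pairs were chosen after the values were seen.

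Scd2 fell in both comparisons with WB, as Scd3 did, but had no called change in TS. Scd2 1415822_at ran from 10.34 through 10.66 to 10.88 in NT, from 10.77 through 11.21 to 11.37 in TS, and from 9.16 through 9.46 to 10.28 in WB. TS was the highest group and overlapped NT only at TS 5, and every WB array lay below every other array. The difference of TS from NT, 0.50 (SE 0.17, adjusted p = 0.0536), did not pass. It passed in 4 of 18 fits that left out 1 array (NT 5, TS 5, WB 4 or WB 5; adjusted p from 0.0109 to 0.0495) and in 5 of 7 other settings. It fell by 1.58 from TS to WB (SE 0.17, adjusted p = 6.43e-07, 2.99-fold) and fell by 1.08 from NT to WB (adjusted p = 4.21e-05, 2.11-fold).

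Scd2 1415823_at gave the same order. It ran from 7.51 through 7.79 to 8.05 in NT, from 7.94 through 8.30 to 8.52 in TS, and from 6.31 through 6.63 to 7.39 in WB. WB lay below both other groups without overlap, and TS overlapped NT at TS 5 alone. TS differed from NT by 0.45 (SE 0.15, adjusted p = 0.0584), which did not pass. It passed without NT 3, TS 5, WB 4 or WB 5 (adjusted p from 0.0129 to 0.0498) and in 3 of 7 other settings. This probe set fell by 1.52 from TS to WB (adjusted p = 3.98e-07) and fell by 1.07 from NT to WB (adjusted p = 2.05e-05), to a WB mean of 6.73 that is under the array median, so no fold is given.

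Within single arrays the differences between the desaturases changed in stripped skin. Scd2 1415822_at minus Scd1 1415964_at ran from -3.27 to -2.72 in NT and from -2.13 to -1.70 in TS, with no overlap, and from -4.33 to -2.92 in WB. The group means were -2.98 ± 0.22, -1.94 ± 0.15 and -3.86 ± 0.50. Scd2 1415822_at minus Scd3 1450956_at was 0.35 ± 0.66 in NT, 2.26 ± 0.70 in TS and 2.67 ± 0.57 in WB, with the lowest TS array (0.99) inside the NT range (-0.46 to 1.34). On average both other desaturases were therefore lower relative to Scd2 in TS than in NT, and from TS to WB Scd1 moved the other way.

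**Figure D2:**
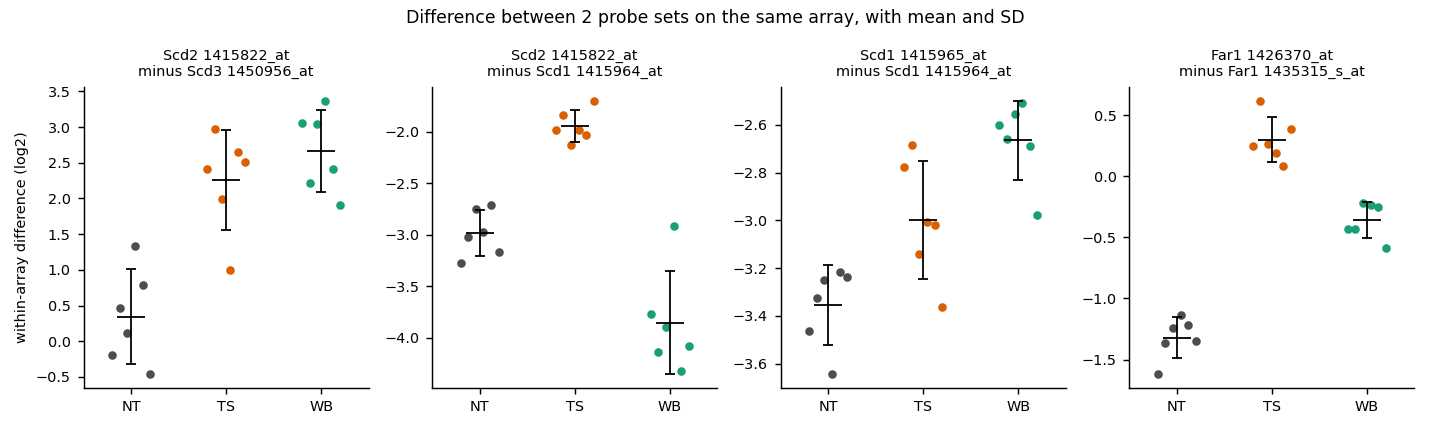
Differences between a pair of probe sets on the same array (vertical axis, log2) by group, with mean and SD of 6 arrays. The difference of Scd2 minus Scd1 is highest in all 6 TS arrays, and that of the pair of Far1 probe sets separates the 3 groups without overlap.

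Elovl3, the elongase, had its called change only in comparisons with WB. Elovl3 1420722_at ran from 11.38 through 11.55 to 11.70 in NT, from 11.54 through 11.91 to 12.17 in TS, and from 9.38 through 9.89 to 10.05 in WB. NT and TS overlapped, and all 6 WB arrays lay more than a log2 unit below all 12 others. TS differed from NT by 0.30 (SE 0.13, adjusted p = 0.151), which passed in none of the alternatives. Elovl3 fell by 2.06 from TS to WB (SE 0.13, adjusted p = 1.23e-09, 4.17-fold) and fell by 1.76 from NT to WB (adjusted p = 7.62e-09, 3.38-fold). The Elovl3 falls from TS and NT to WB were between -2.12 and -1.94 and between -1.81 and -1.60 over all alternatives.

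Far1 and Far2, the reductases that make fatty alcohols, are on different chromosomes. Their promoter windows (RefSeq, GRCm38.p6, plus strand) are printed to show that these related genes do not share the searched letters. Far1, chr7:113513584-113513883, holds 3 matches to CCAAT on either strand, in capitals, and Far2, chr6:148047166-148047465, holds none of the 3 motifs. Their GC content is 67.7% and 66%, against a median of 52.7% over all promoters and 54% for Scd3.
Far1: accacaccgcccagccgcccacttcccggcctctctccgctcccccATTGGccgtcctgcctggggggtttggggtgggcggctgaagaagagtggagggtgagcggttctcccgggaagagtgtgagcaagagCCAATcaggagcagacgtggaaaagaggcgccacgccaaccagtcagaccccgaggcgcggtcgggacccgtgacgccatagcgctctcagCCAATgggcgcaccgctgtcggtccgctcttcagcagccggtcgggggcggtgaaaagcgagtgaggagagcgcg
Far2: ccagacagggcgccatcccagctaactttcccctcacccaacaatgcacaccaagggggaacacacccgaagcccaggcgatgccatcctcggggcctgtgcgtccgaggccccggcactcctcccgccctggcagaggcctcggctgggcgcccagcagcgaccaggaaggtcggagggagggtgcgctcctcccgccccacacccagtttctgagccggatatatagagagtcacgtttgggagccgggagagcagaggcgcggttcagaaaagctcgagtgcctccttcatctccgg

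The 4 varying Far1 probe sets disagreed. Far1 1426370_at ran from 7.49 through 7.79 to 7.94 in NT, from 8.38 through 8.55 to 9.05 in TS, and from 8.49 through 8.84 to 9.09 in WB. Every TS and WB array lay above every NT array, while TS and WB overlapped. It rose by 0.86 in TS (SE 0.13, adjusted p = 0.000253, 1.82-fold) and by 1.04 from NT to WB (adjusted p = 3.73e-06). WB minus TS was 0.17 (adjusted p = 0.317), which passed only after quantile normalization (adjusted p = 0.0438).

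Far1 1435315_s_at, whose suffix marks probes that match several transcripts, ran from 8.92 through 9.07 to 9.23 in NT, from 8.08 through 8.35 to 8.55 in TS, and from 8.73 through 9.21 to 9.35 in WB. TS lay below both other groups without overlap, and NT and WB overlapped. It fell by 0.76 in TS (SE 0.10, adjusted p = 0.000122, 1.69-fold) and rose by 0.83 from TS to WB (adjusted p = 3.85e-06, 1.78-fold). WB and NT differed by 0.07 (SE 0.10, adjusted p = 0.653). Far1 1426370_at minus 1435315_s_at on the same array was -1.32 ± 0.17 in NT, 0.30 ± 0.19 in TS and -0.36 ± 0.15 in WB, and no group overlapped another. Which transcripts each probe set detects was not analysed here.

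Far1 1426371_at ran from 8.93 through 9.11 to 9.37 in NT, from 9.17 through 9.49 to 9.75 in TS, and from 10.01 through 10.38 to 10.72 in WB. WB lay above all other arrays, and NT and TS overlapped. TS minus NT was 0.34 (SE 0.15, adjusted p = 0.159), and the rises to WB were 0.89 from TS (adjusted p = 9.57e-05, 1.85-fold) and 1.23 from NT (adjusted p = 2.93e-06, 2.34-fold). Far1 1426369_at ran from 9.50 through 9.59 to 9.74 in NT, from 9.56 through 9.76 to 9.99 in TS, and from 9.58 through 9.89 to 9.94 in WB, and all groups overlapped. Only its difference of WB from NT, 0.24 (SE 0.08, adjusted p = 0.0187), passed. TS minus NT was 0.15 (adjusted p = 0.248) and WB minus TS 0.09 (adjusted p = 0.422; 0.0447 after quantile normalization).

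Far2 changed at one probe set in one comparison. Far2 1435621_at ran from 9.09 through 9.58 to 9.84 in NT, from 8.22 through 9.34 to 9.74 in TS, and from 9.48 through 9.99 to 10.29 in WB. All groups overlapped, and TS had the widest spread (SD 0.55, against 0.26 in NT and 0.31 in WB). It rose by 0.75 from TS to WB (SE 0.23, adjusted p = 0.0117, 1.69-fold). TS minus NT was -0.35 (adjusted p = 0.424) and WB minus NT 0.41 (adjusted p = 0.162; 0.0389 after quantile normalization).

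Far2 1455889_at had no called difference. It ran from 10.90 through 11.16 to 11.28 in NT, from 10.63 through 11.33 to 11.72 in TS, and from 10.81 through 11.17 to 11.45 in WB. All groups overlapped, with TS again the widest (SD 0.43). Its differences were 0.18 (TS minus NT), -0.13 (WB minus TS) and 0.05 (WB minus NT), each with an SE of 0.17, and none passed (adjusted p = 0.651, 0.63 and 1).

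**Figure D3:**
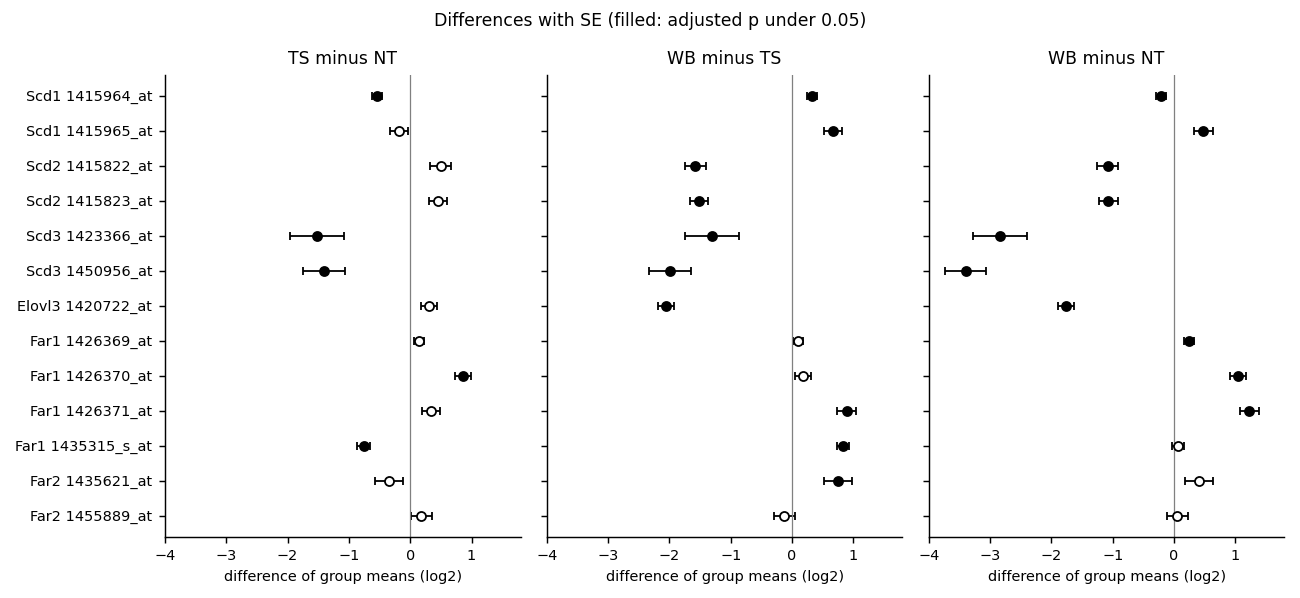
Differences of group means (horizontal axis, log2) with their SE for the 13 varying probe sets in the 3 comparisons, filled where adjusted p was under 0.05. Both Scd3 probe sets are called lower in every panel, Elovl3 and Scd2 are called lower only in the panels with WB, and the Far1 probe sets lie on both sides of 0 in TS minus NT.

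After each group mean was subtracted, Scd1, Elovl3, Far1 and Far2 tended to go up and down together across the 18 arrays. Over the 28 pairs of probe sets from different genes among these, Pearson's r ran from 0.21 to 0.86 with a median of 0.57. Over all 68 pairs from different member genes it ran from -0.65 to 0.86 with a median of 0.32. Scd2 had no such relation with the other genes (22 pairs, r from -0.65 to 0.31, median -0.06), although its own probe sets correlated at 0.94. Scd3 lay between (18 pairs with Scd1, Elovl3, Far1 and Far2, r from -0.07 to 0.59, median 0.30), with 0.95 between its own probe sets. The probe sets of Far1 correlated among themselves at 0.49 to 0.80, those of Far2 at 0.88 and those of Scd1 at 0.70. Array TS 5 was the lowest TS array in 9 of the 13 probe sets, WB 4 the lowest WB array in 7 and NT 4 the lowest NT array in 6. These correlations describe 18 arrays that share their RNA between genes, and no test was made of them. The genes were grouped with earlier results known, and how far genes taken at random correlate on these arrays was not tested.

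Among 6841 genes, the group-centred course of Elovl3 was most like those of Tlcd2 (r = 0.90), Sec14l4 (0.90) and Nucb2 (0.89), over 18 arrays. Without the 2 arrays farthest from the median r was 0.92, 0.84 and 0.85, and over the 18 pairs named here it was 0.67 to 0.92. This likeness is within groups: with the group means left in, Elovl3 ran with Sec14l4 (r = 0.94) but against Tlcd2 (-0.81) and Nucb2 (-0.64). Far1 1426369_at was most like Sec14l4 (0.90), Elovl3 itself (0.86) and Tlcd4 (0.85). Far2 1455889_at was most like Dhrs7 (0.92), the retinol dehydrogenase gene Rdh9 (0.92) and the lipase gene Pnpla5 (0.90). Scd1 1415964_at was most like Psme1 (0.88), Dhrs7 (0.87) and Dipk2a (0.87), so that Dhrs7 stands beside both Scd1 and Far2. With the group means left in, r of Scd1 with these 3 genes was -0.03, 0.12 and 0.31. In the same way Far1 was at -0.35 with Sec14l4, -0.27 with Elovl3 and 0.84 with Tlcd4. Far2 was at 0.29 with Dhrs7, 0.66 with Rdh9 and 0.30 with Pnpla5. Scd3 was most like Heca (0.87), 1110064A23Rik (0.86) and the cell cycle inhibitor gene Cdkn1a (0.85). Scd2 was most like Clcn7 (0.84), Zfp407 (0.82) and Pcyt1a (0.74), an enzyme gene of phosphatidylcholine synthesis. With the group means left in, Scd3 ran against Cdkn1a (r = -0.76) and Scd2 against Zfp407 (-0.76), while the other 4 of these pairs stayed positive (0.59 to 0.89).

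The fatty acids that these enzymes modify are built by a pathway whose genes fell more often than they rose after stripping. Of 26 listed genes of fatty acid synthesis, elongation and desaturation, 25 are on the array and 23 vary. In TS against NT 1 of them rose and 9 fell (median -0.25), where 19.3% of all varying genes rose and 21.1% fell, with a median of 0.00. The count of 10 came to 6 without TS 6. Thrsp, a regulator of lipogenesis, had the largest fall of the list at -4.15 (SE 0.43, adjusted p = 1.43e-05). Acss2, which activates acetate, fell by 1.34 and Fasn, the fatty acid synthase, fell by 1.05 (SE 0.16 and 0.19). Mlxipl, a glucose-responsive lipogenic transcription factor, fell by 0.62 (SE 0.08), to a TS mean of 6.88 that is under the mean array median of 6.93. Without NT 5, the array with the liver signal, these differences were -4.19 (Thrsp), -1.32 (Acss2), -1.05 (Fasn) and -0.57 (Mlxipl), and all still passed.

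In WB against TS 10 of the 23 rose and 8 fell (median 0.12), against 48.4% and 39.2% of all varying genes (median 0.16). Tecr, the last enzyme of the elongation cycle, fell by 4.15 at its brightest probe set (SE 0.12, adjusted p = 5.75e-14), with means of 11.41 in TS and 7.27 in WB. Whether other probe sets of Tecr share this fall was not examined. The acyl-CoA synthetase gene Acsl5 fell by 1.48 and the desaturase gene Fads1 fell by 1.10, while the lipogenic transcription factor gene Srebf1 rose by 1.08. In WB against NT 6 rose and 11 fell, against 46.9% and 41.3% of varying genes.

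Other elongases did not share the course of Elovl3 throughout. Elovl7 came nearest at its representative probe set, with a rise of 0.47 in TS (SE 0.14, adjusted p = 0.0261) and a difference of -1.44 from TS to WB. That rise is the only one called among its 6 probe sets, and it was lost in a fit of TS and NT alone (adjusted p = 0.0658) and without NT 2, NT 6, TS 2, TS 3, TS 4 or TS 6. From TS to WB its probe sets spread from -1.44 to 0.92. Elovl5 fell by 0.68 in TS at one probe set and fell by 0.67 at the other. The former call (adjusted p = 0.0473) was lost after median centring (0.0623), after quantile normalization (0.0747) and without any one of NT 1, 2, 3, 5 or 6, TS 1, 2, 5 or 6, or WB 3, 4 or 5. Its probe sets were called in opposite directions from TS to WB (-1.68 and 0.86). Elovl1 did not pass in TS, and 3 of its 4 probe sets rose and 1 fell from TS to WB (-3.42 to 0.90). Elovl4 fell by 0.18 from TS to WB at its brighter probe set, which was 0.15 higher there after quantile normalization, and its other probe set was at -0.67. Elovl6 (0.10 and 0.13) and Elovl2 (-0.60 and 0.12) did not pass at these probe sets in TS minus NT or WB minus TS, apart from Elovl6 in the latter after quantile normalization (adjusted p = 0.0052). The other varying probe set of Elovl6 was called lower from TS to WB, at -0.26. The NT arrays spread widely in Elovl2 (SD 1.37, against 0.06 in TS). Fads3 was called only from TS to WB and NT to WB (-0.35 and -0.61), the former lost without TS 2, 4 or 6 or WB 1, 3, 4 or 5, and in a fit of TS and WB alone, with array weights and after quantile normalization. The 3 Fads2 probe sets are constant.

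Genes of neutral lipid assembly and lipid droplets, a list that also holds lipases, included 18 on the array and 13 that vary out of 20 listed. In TS against NT 1 rose and 3 fell (median -0.04), where 19.3% of all varying genes rose and 21.1% fell, with a median of 0.00. Dgat2, the triglyceride-forming member of the family that holds Awat2 and Dgat2l6, fell by 1.07 (SE 0.10, adjusted p = 6.42e-06). The lipase gene Lipe fell by 1.40 and the acyltransferase gene Agpat2 fell by 0.63, and Abhd5, a co-activator of lipases, rose by 1.06. From TS to WB 4 rose and 9 fell (median -0.86), against 48.4% and 39.2% of all varying genes (median 0.16). At their brightest probe sets, the lipid droplet protein gene Cidea fell by 3.96 (SE 0.24, adjusted p = 7.51e-10) and Abhd5 fell by 1.66 (SE 0.17). Plin2 fell by 1.31 and Dgat2 fell by 0.95. Whether other probe sets of Cidea share its fall was not examined. Dgat1 did not pass in TS (-0.02) and fell by 0.26 from TS to WB. From NT to WB 3 rose and 9 fell, against 46.9% and 41.3% of all varying genes. Mogat1 and Mogat2 are constant, and Awat1 was not analysed here.

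**Figure D4:**
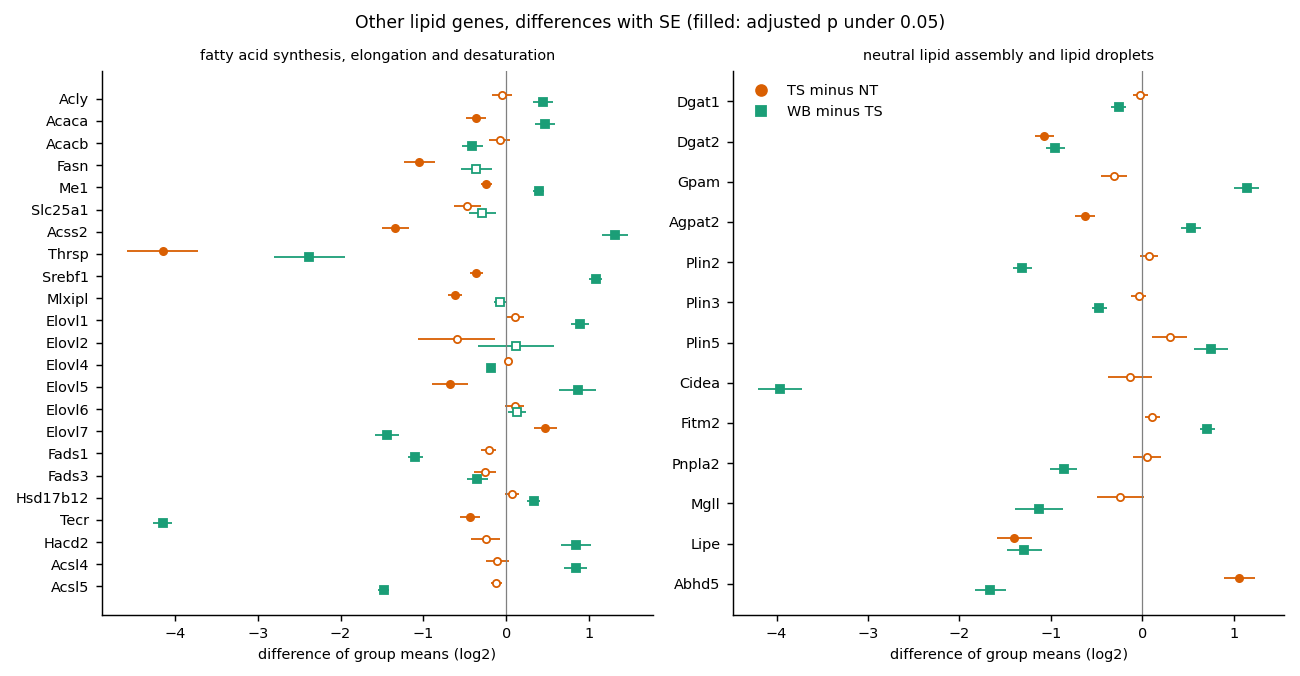
Differences of group means (horizontal axis, log2) with SE for the varying genes of both lipid lists, for TS minus NT (circles) and WB minus TS (squares), filled where adjusted p was under 0.05. Thrsp lies lowest in TS minus NT at -4.15, and Tecr (-4.15) and Cidea (-3.96) lie lowest in WB minus TS.

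Of 12 listed sebocyte markers, 11 are on the array and 8 vary, 7 of them with every group mean above the mean array median and Krt7 near it (6.75, 6.97 and 6.85 in NT, TS and WB). The mean of the 8 was 10.39 ± 0.07 in NT (10.31 to 10.51), 10.30 ± 0.22 in TS (9.91 to 10.55) and 9.40 ± 0.12 in WB (9.19 to 9.56). NT and TS overlapped (difference -0.10), and WB lay below both without overlap (-0.90 from TS). These means are given with no test, because the list was chosen with earlier results of these data known. Cidea (-3.96) weighs most in the latter, and the mean of the other 7 differed by -0.47 from TS to WB. In TS 1 of the 8 rose (Krt7, 0.22) and 2 fell (Fasn and Mgst1, the latter at -0.12, a call lost after quantile normalization and without NT 5, TS 3, TS 5 or TS 6). From TS to WB 1 rose (Mgst1, 0.37) and 5 fell, among them Cidea, Plin2 and Pparg, the transcription factor of sebocyte and fat cell differentiation (-0.73, SE 0.11). Krt7 is also among the 5 (-0.12, adjusted p = 0.0488), a call lost in 18 alternatives (adjusted p from 0.0545 to 0.119). From NT to WB 1 rose and 4 fell. Over all varying genes 19.3% rose and 21.1% fell in TS, 48.4% and 39.2% from TS to WB, and 46.9% and 41.3% from NT to WB. Cidea, Plin2 and Fasn are also on the lipid lists, and fat cells express them too. The part of sebocyte number in the differences of the sebaceous genes was not tested.

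Other cell types in the samples moved as well. Adipocyte markers (10 of 12 on the array, all varying) had a mean of 11.18 ± 0.16 in NT, 10.04 ± 0.21 in TS and 8.80 ± 0.13 in WB, with no overlap between groups. Of the 10, 8 fell and none rose in TS against NT, and 7 fell and 1 rose in WB against TS. Beside these counts and those below, 21.1% of all varying genes fell and 19.3% rose in TS against NT. In WB against TS 39.2% fell and 48.4% rose. Fat cells also express Scd1, and the part of this difference in the fall of Scd1 was not tested. Hair follicle markers averaged 9.43 in NT, 8.08 in TS and 8.35 in WB, and 9 of 11 varying ones fell in TS. Skeletal muscle markers averaged 13.22, 10.68 and 7.65, and 9 of 10 fell in TS. Keratinocyte markers averaged 11.90, 12.34 and 11.68, and 6 of 10 rose and 1 fell in TS. Their part in the differences of the sebaceous genes was not tested either.

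**Figure D5:**
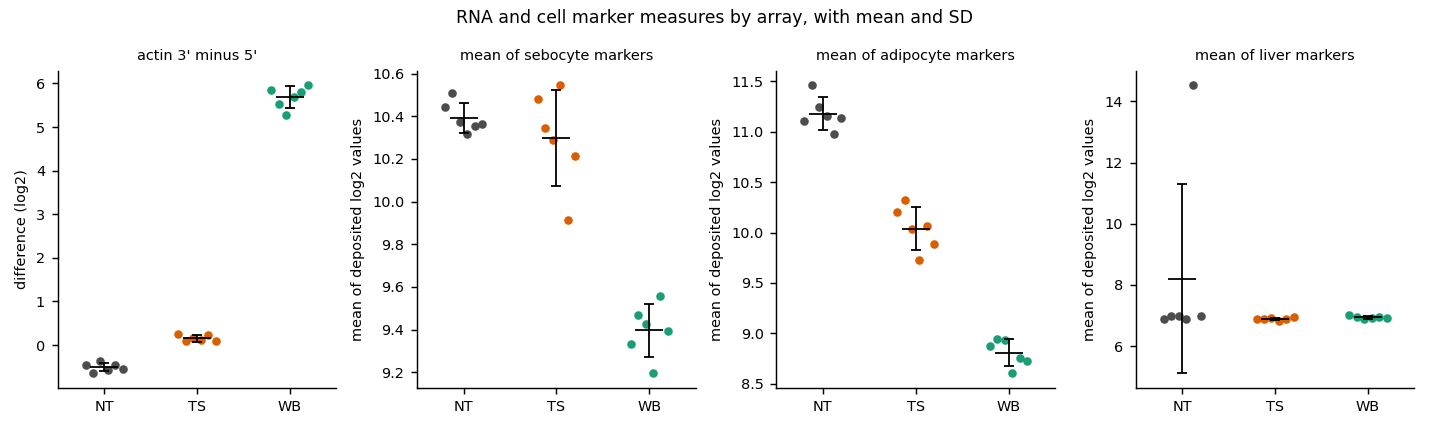
Array measures by group, with mean and SD of 6 arrays: the actin 3' minus 5' difference (log2) and the means of the varying sebocyte, adipocyte and liver markers (deposited log2 values). The WB arrays stand apart in the actin difference and lie lowest in the sebocyte and adipocyte means, and NT 5 alone is high in the liver mean at 14.54.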

How the data were processed

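Transcript levels of mouse dorsal skin were measured on Affymetrix arrays from 100 ng of total RNA, extracted with Isogen and purified on RNeasy columns, per the labels' protocols. The deposited table gives 1 log2 value per probe set and array. The authors' summarising and normalization and the base of the logarithm are not given in the sources used here, and base 2 was taken because values run from 2.93 to 19.04. The number of arrays limits the precision. Without the 64 control probe sets, 45037 were tested in 1 fit of 18 arrays with limma 3.58.1 in R 4.3.3 (lmFit, eBayes, two-sided, Benjamini-Hochberg). The fit was tested on simulated data. Symbols come from the platform annotation (34945 probe sets with 1 symbol, 932 with several, 9160 with none), and each list gene stands for the brightest of its probe sets on average. Array measures were compared by exact permutation. The highest correlation between a pair of arrays was 0.9899 and none were identical.

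Named were all members, the 4 genes with the smallest p that passed per lipid and sebocyte list in TS minus NT and WB minus TS (3 passed in the sebocyte list in TS minus NT), the Elovl, Fads and Dgat2 families, and the 3 genes most like each member. The members, lists, pairs and rules were chosen with earlier results of these data known. Alternatives were quantile normalization, median centring, filters on dim or constant probe sets, fits of 2 groups alone, array weights, the replicate number as a block, leaving out each array, and averaging the varying probe sets of each list gene. Promoter sequences were available for 6 of the 10 genes, 3 of them measured.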

Additional observations from a re-analysis of the deposited data

Results flagged for a closer look

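In 6 of 66 groups tested, one array lay far from the other 5, where chance alone gives about 1 group in 20. Scd1 1415964_at was 13.74 on NT 2 and 13.57 to 13.62 on the other NT arrays, and its fall in TS was -0.52 without NT 2. Scd3 1423366_at was 9.38 on TS 4 and 7.01 to 7.82 on the other TS arrays. Far1 was low on WB 4 at 1426369_at (9.58, others 9.82 to 9.94) and at 1435315_s_at (8.73, others 9.13 to 9.35). Without WB 4 the difference of WB from TS at 1435315_s_at was 0.92, and that of WB from NT at 1426369_at was 0.29. The Gapdh 3' minus 5' difference was 4.41 on WB 2 and 3.45 to 3.71 on the other WB arrays. The mean of liver markers was 14.54 on NT 5 and 6.89 to 6.98 on the other NT arrays.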

How the results depend on the processing

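Of 975 recomputed differences of the sebaceous genes, 19 no longer passed, 19 passed in addition and the others stayed on their side of the threshold. The sign changed in 3: Scd1 1415964_at in WB minus NT (0.16 after quantile normalization), and Far2 1455889_at, uncalled throughout, in WB minus TS (0.04 after quantile normalization) and WB minus NT (-0.01 without WB 2). The count of called probe sets stayed between 4 and 7 in TS minus NT, 10 and 12 in WB minus TS, and 8 and 11 in WB minus NT. With the replicate number as a block these counts were 4, 10 and 8, and 6329, 20338 and 21130 probe sets of the table passed. Scd3 1423366_at in TS minus NT (adjusted p = 0.0584), and Scd1 1415964_at (0.0608) and Far1 1426369_at (0.0556) in WB minus NT, then no longer passed, nor did Elovl5, Elovl7 and Mgst1 in TS minus NT (0.121, 0.0722 and 0.0678). Same-numbered arrays showed little common deviation (r from -0.27 to 0.14, and at most 2 of 6 pairs over 0.1 in a comparison). Low correlations cannot exclude that the numbers pair the samples, and the labels call them only biological replicates.

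By adjusted p alone 7020, 21055 and 21749 probe sets passed in TS minus NT, WB minus TS and WB minus NT. Median centring gave 4316, 43994 and 43993. Quantile normalization gave 44002 and 43948 in the comparisons with WB, fits of varying probe sets alone 10705 and 10750, and fits without dim ones 10432 and 10469. Centring and quantile normalization shift constant probe sets together, by 0.04 and 0.02 in WB minus TS, and the filters test fewer. Quantile normalization moved the median of varying probe sets in WB minus NT from 0.01 to 0.13.

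Elovl4 reversed after quantile normalization, to 0.15 in WB minus TS and 0.28 in WB minus NT, as did Hoxc13, to 0.03 and 0.01; the cause was not tested. Leaving out 1 array, the differences of the liver genes in WB minus NT ran from -2.01 to 0.20 (Apoa2), -1.23 to 0.28 (Apoh) and -1.26 to 0.20 (Fga), positive only without NT 5. Levels under the array median of 6.93 limit what can be said of Scd3 and Scd2 in WB, and of Mlxipl in TS.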
